A study of Mus musculus with 18 samples.

Results

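The cytosolic ribosomal protein genes encode the proteins of the ribosome that translates messenger RNA in the cytoplasm. They were taken as every row of the deposited table whose symbol is Rpl or Rps followed by a number and at most an a or x, one of Rplp0 to Rplp2, or Rpsa, provided that 4 or more of the 18 libraries reached 10. This gave 76 of the 46983 genes in the table. All 76 genes with such a symbol passed the filter on values. Of them, 46 encode proteins of the large and 30 of the small ribosomal subunit. The rule uses symbol and level, and the gene family was taken up with earlier results of these data known.

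The series set naive and memory-phenotype CD8 T cells of wild-type mice beside those of Dock2-deficient mice; Dock2 is a guanine nucleotide exchange factor for Rac in blood cells. Naive cells are described by the labels as low and memory cells as high in CD44, a surface receptor that rises when T cells have been activated. Wild-type mice gave 4 libraries of each cell type and mice of the genotype Dock2-Hsd/Hsd (Dock2-/-) gave 5 of each. The strain field reads C57BL/6J throughout, but the descriptions of all 10 Dock2-deficient libraries carry the name C57L6NHsd, and substrain and genotype cannot be told apart. Treatment is given as none, and age, sex, cell numbers and pooling of animals are not stated. The labels do not say that replicates came from separate mice, so a p-value here measures the spread between libraries, which may be partly technical.

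A ribosome joins a small subunit, which reads the messenger RNA, to a large subunit, which links amino acids. Each subunit needs its proteins in fixed proportion, and most are encoded by a single expressed gene, with many silent copies (processed pseudogenes) elsewhere in the genome. Their messenger RNAs begin with a short run of pyrimidines, the terminal oligopyrimidine (TOP) start, through which mTORC1 and LARP1 control their translation as a group. T cells enlarge their ribosome pool when they leave quiescence, and resting naive and memory cells are known to hold ribosomal protein messages whose translation is increased on activation.

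A value is an RSEM expected read count divided by 1 factor per library, called here a normalized expected count. Depth, read back from the table, was 2215987 to 8257768 expected reads per library, of which the ribosomal RNA gene Rn18s-rs5 took 37.0% to 69.4% and the mitochondrially encoded genes 3.33% to 7.50%. Dock2 RNA was present in all 18 libraries, at 288 to 514 (naive) and 399.7 to 844 (memory) in wild type and at 171 to 373 (naive) and 61.0 to 279.6 (memory) in the Dock2-deficient mice. Of 12 genes that mark naive or memory cells, 6 rose and 5 fell in wild-type memory cells and 6 rose and 4 fell in Dock2-deficient ones. The 10 CD8 T cell genes checked summed to between 7706 and 17278. The 5 CD4 and regulatory T cell genes summed to at most 36.1, the 9 myeloid genes to at most 48.9 with Adgre1 at 0 in all 18 libraries, the 7 natural killer genes to at most 75.6 (a wild-type memory library) and the 6 erythroid genes to at most 340.4 (a Dock2-deficient naive library). The 9 B cell genes summed to 372 to 1679, most of it Ighm, with Pax5 at 0 in 17 and Ebf1 in 16 of 18 libraries. The part of these genes in the results below was not tested.

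Ribosomal protein genes were among the most abundant messages in these cells. Levels per kilobase of transcript were compared over the 8646 genes tested that have an annotated protein-coding transcript. Of these, 35 of the 50 and 61 of the 100 most abundant were ribosomal protein genes, and 72 of the 200. Levels per kilobase differed widely between them. The highest 18-library means were those of Rplp1, a protein of the stalk that recruits elongation factors, at 12325 per kilobase, Rps4x, an X-linked protein of the small subunit, at 12305, Rplp0, the base of the stalk, at 12047, and Rps27 at 11916. The median of the 76 genes was 3923 per kilobase. The lowest were Rpl5 at 87.3, Rpl27 at 204, Rpl12 at 246 and Rpl35 at 366 per kilobase. The annotated transcript was 271 to 3706 bases long, with a median of 705, against a median of 2796.5 over the same 8646 genes. A low level per kilobase depends on the transcript chosen (2045 bases for Rpl5) and, for several genes, on reads shared with near-identical copies.

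The summed level of the 76 genes varied widely between libraries of the same group. As a share of the whole library it was 3.27, 5.17, 8.87 and 6.57% in wild-type naive libraries 1 to 4 and 5.86, 4.25, 6.25 and 3.22% in wild-type memory libraries 1 to 4. It was 4.47, 3.96, 3.77, 8.52 and 7.55% in Dock2-deficient naive libraries 1 to 5 and 5.35, 8.25, 11.2, 4.09 and 17.7% in Dock2-deficient memory libraries 1 to 5. All 4 groups overlapped, and Dock2-deficient memory libraries 3 and 5 lay above every library of the other 3 groups. The means were 5.97 ± 2.36% (SD, n = 4), 4.90 ± 1.41% (SD, n = 4), 5.66 ± 2.22% (SD, n = 5) and 9.32 ± 5.45% (SD, n = 5), in the same order. The gap between the highest pair of means, 5.97% and 9.32%, was smaller than the SD of the Dock2-deficient memory group. In these bulk libraries, fewer cells with the messages and less message per cell cannot be told apart.

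The share moved against that of ribosomal RNA. Both are shares of the same library total, so a larger share of one leaves less for the other. Rn18s-rs5 took 61.6, 55.0, 48.6, 69.0 and 37.0% of Dock2-deficient memory libraries 1 to 5, so that the library with the highest ribosomal protein share had the lowest ribosomal RNA share of all 18. It took 65.2, 61.3, 52.1 and 55.8% of wild-type naive libraries 1 to 4, where the lowest ribosomal protein share again stood beside the highest ribosomal RNA share of the group. The part of ribosomal RNA content in the differences between libraries was not tested. A second scale leaves out ribosomal RNA and mitochondrial genes, where ribosomal RNA means the row Rn18s-rs5 alone. The row Gm26917, at 1.85% to 5.51% of a library, stays in. Outside ribosomal RNA and mitochondrial genes, the ribosomal protein genes made up 10.6, 15.9, 21.1 and 17.0% and 15.7, 12.1, 16.5 and 12.3% of the value in the wild-type naive and memory libraries. The same share was 13.5, 13.0, 12.6, 22.2 and 18.9% and 15.8, 21.2, 25.4, 14.8 and 30.0% in the Dock2-deficient naive and memory libraries. On this scale the range over the 18 libraries narrowed from 5.50-fold to 2.82-fold, and Dock2-deficient memory libraries 3 and 5 were again the highest. Among the Dock2-deficient naive libraries, numbers 4 and 5 lay above numbers 1 to 3 on both scales. The sample descriptions number libraries 4 and 5 of each Dock2-deficient group apart from the other 3. They also number all naive libraries before all memory libraries, and do not say what the numbers stand for. Among the Dock2-deficient memory libraries, number 4 was the lowest and number 5 the highest of the group on both scales.

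**Figure D1:**
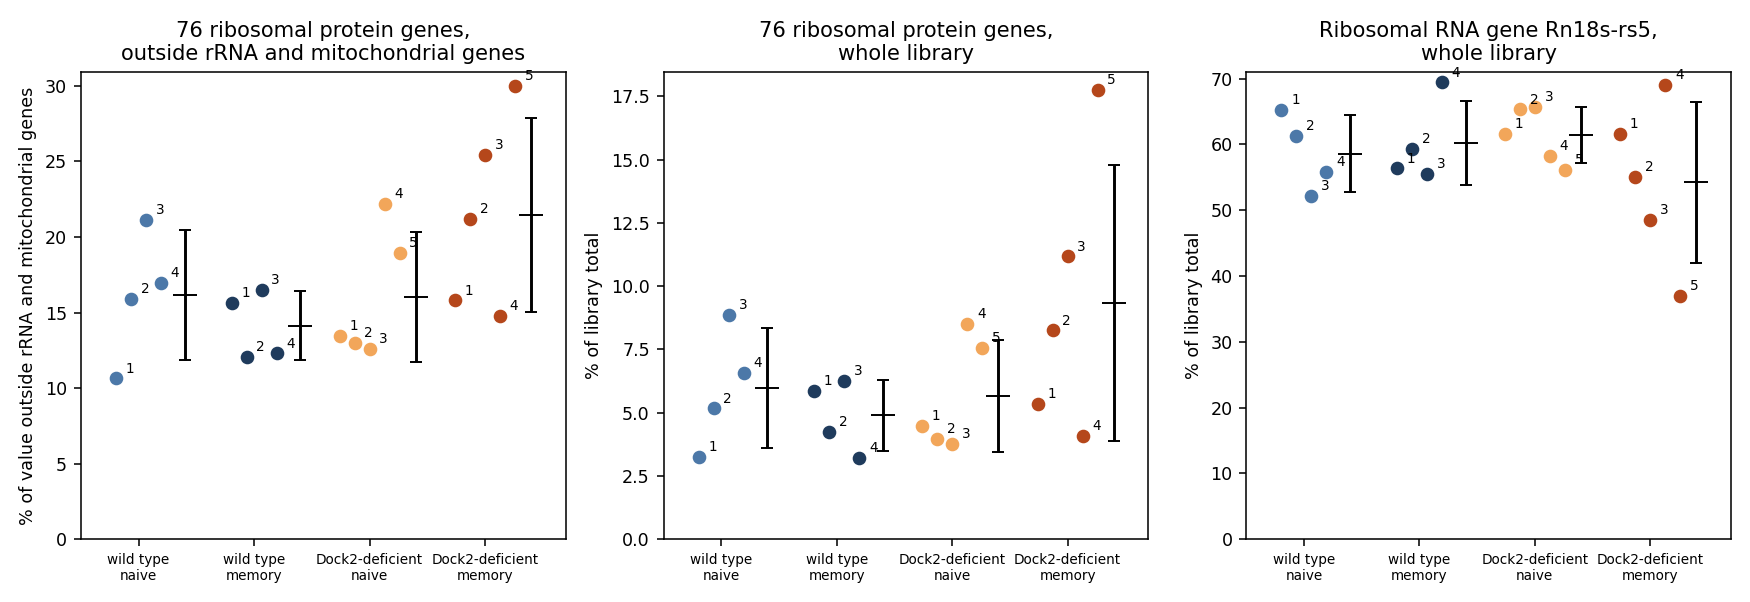
Summed share of the 76 ribosomal protein genes outside ribosomal RNA and mitochondrial genes (left, percent), in the whole library (middle, percent), and share of the ribosomal RNA gene (right, percent) for each library, numbered within its group, with the group mean and SD beside the points. Dock2-deficient memory library 5 has the highest ribosomal protein shares (30.0% and 17.7%) and the lowest ribosomal RNA share (37.0%), and every pair of groups overlaps.

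The 76 genes followed one another closely from library to library. The Pearson correlation of each gene with the mean of the other 75, on log2(value + 1) over the 18 libraries, had a median of 0.978 and was above 0.9 for 70 genes, a description of libraries that share depth, scaling and ribosomal RNA content. Rps16 followed the others most closely (0.996) and Rps12 least (0.48). The next lowest were Rpl10 (0.81), Rpl12 (0.82) and Rpl27 (0.86). Wild-type naive library 1 was the lowest of all 18 libraries for 71 of the 76 genes. Dock2-deficient memory library 5 was the highest for 73 and Dock2-deficient memory library 3 for the other 3, and both were among the top 3 libraries for all 76. Dock2-deficient memory library 2 was above the 18-library mean for all 76 as well, as was wild-type naive library 3, whereas Dock2-deficient memory library 4 was above it for 10 and library 1 for 7. Within groups, the median coefficient of variation of the 76 genes was 39.7% and 21.5% in wild-type naive and memory cells and 28.4% and 54.2% in Dock2-deficient ones. For 1405 other genes at least as abundant as the least abundant of the 76 it was 23.1%, 18.5%, 22.4% and 31.5%.

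**Figure D2:**
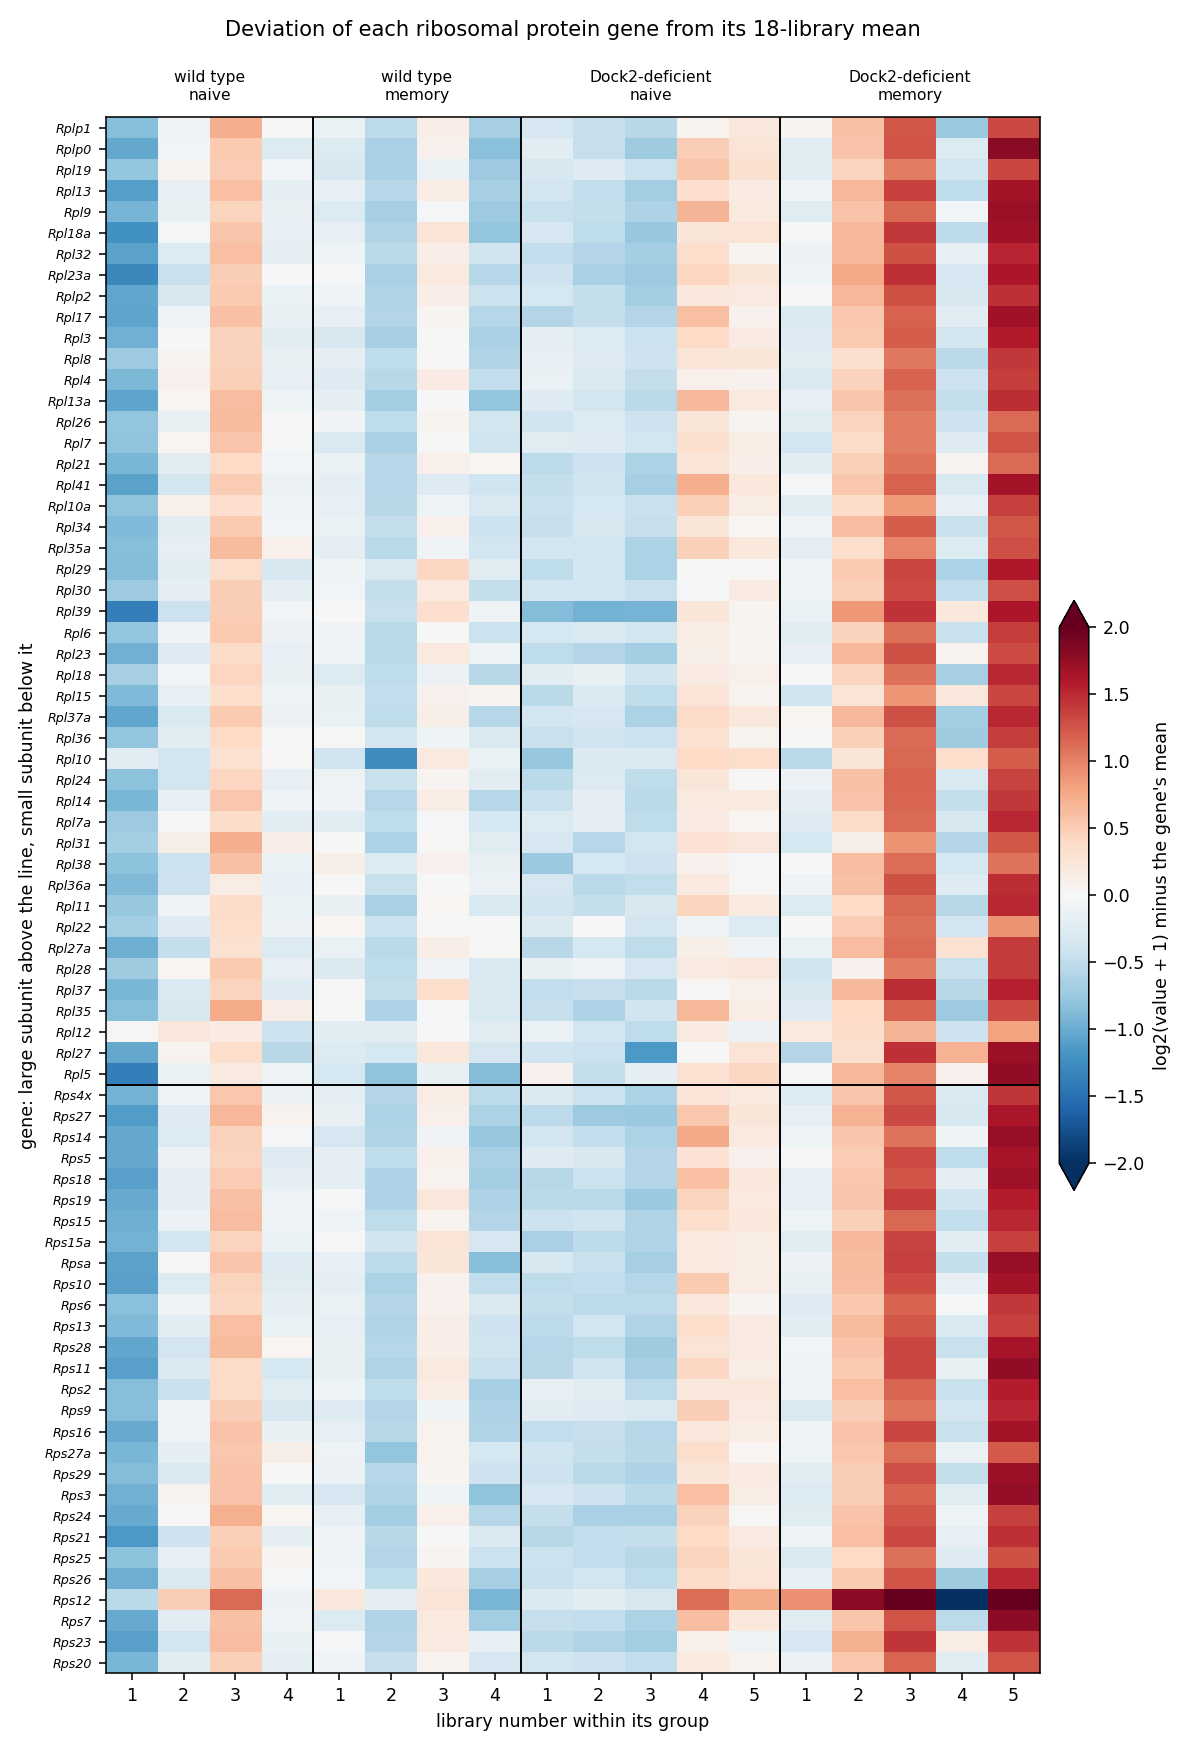
Heat map of log2(value + 1) minus the gene's 18-library mean, with genes in rows (74 genes, 46 of the large subunit above the line and 28 of the small subunit below it, each ordered by level per kilobase) and libraries in columns by group. Columns are nearly uniform in colour: Dock2-deficient memory libraries 3 and 5 are high and wild-type naive library 1 is low for almost every gene, and Rps12 in Dock2-deficient memory library 4 is the cell farthest below its row.

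The start sites of these genes were searched for short motifs, with no test of enrichment. RefSeq start windows on GRCm38.p6 (250 bases before to 50 after the start) were found for 56 of the 76 genes, 66 windows in all. A run of at least 6 C or T that begins with C, lying within 5 bases before to 10 bases after the annotated start, was present in 29 of the 66 windows (43.9%), against 13.9% of all 32851 windows in the table and 13.6% of windows of the other genes tested. CCGGAAG, a core bound by ETS factors such as GABP, was found on either strand, as were the motifs that follow, in 36.4% of the windows, against 8.86% and 20.8% of the same comparison sets. CTTTCC was found in 50%, against 26.6% and 26.5%, and AAGATGG, a core of the YY1 motif, in 16.7%, against 6.34% and 8.10%. TATAAA was in 9.09%, against 13.6% and 6.56%, and GGGCGG, a core of the Sp1 motif, in 60.6%, against 35.7% and 63.7%. The runs counted on the sense strand may overlap CTTTCC, and a match is a description of the letters only. The windows below run from 60 bases before to 19 after the annotated first base, 5′ to 3′. Capitals mark the C-led pyrimidine run, and Rplp0, Rpl5 and Rps4x have no such run in the interval searched. The Rpl5 window holds a C-led pyrimidine run before that interval, which lies after the first base of the Rpl5 gene in GENCODE. Whether a run is counted thus depends on the annotated start used.
Rps6 (chr4:86857348-86857427, minus strand): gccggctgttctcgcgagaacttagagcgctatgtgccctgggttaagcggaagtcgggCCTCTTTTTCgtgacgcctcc
Rpl39 (chrX:37085203-37085282, minus strand): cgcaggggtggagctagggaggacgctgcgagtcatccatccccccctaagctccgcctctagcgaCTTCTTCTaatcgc
Rpl13a (chr7:45128726-45128805, minus strand): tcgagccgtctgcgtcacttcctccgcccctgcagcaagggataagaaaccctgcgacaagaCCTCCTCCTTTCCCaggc
Rplp2 (chr7:141447591-141447670, plus strand): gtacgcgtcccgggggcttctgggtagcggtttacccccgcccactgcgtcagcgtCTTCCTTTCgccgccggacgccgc
Rpl27a (chr7:109519135-109519214, plus strand): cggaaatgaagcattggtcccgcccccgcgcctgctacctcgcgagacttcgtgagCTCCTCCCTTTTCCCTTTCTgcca
Rps27 (chr3:90213629-90213708, minus strand): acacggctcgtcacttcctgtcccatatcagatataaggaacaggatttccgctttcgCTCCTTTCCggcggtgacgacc
Rps12 (chr10:23787190-23787269, minus strand): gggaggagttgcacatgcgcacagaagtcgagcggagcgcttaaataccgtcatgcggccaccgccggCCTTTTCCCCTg
Rplp0 (chr5:115559407-115559486, plus strand): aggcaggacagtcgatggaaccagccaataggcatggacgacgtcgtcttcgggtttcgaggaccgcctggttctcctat
Rpl5 (chr5:107900468-107900547, plus strand): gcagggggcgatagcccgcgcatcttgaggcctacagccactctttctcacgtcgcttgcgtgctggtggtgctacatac
Rps4x (chrX:102189372-102189451, minus strand): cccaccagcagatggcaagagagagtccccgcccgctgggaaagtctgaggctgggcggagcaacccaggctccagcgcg

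Rps6, the target of the S6 kinases, has the run over its annotated start, as do Rplp2, Rpl27a and Rps27, whereas the runs of Rpl13a, Rpl39 and Rps12 begin 2, 6 and 8 bases after it. Among these 10 genes, the correlation with the other ribosomal protein genes ran from 0.48 (Rps12) to 0.990 (Rplp2) for the 7 with a run in the interval searched. It ran from 0.903 (Rpl5) to 0.994 (Rps4x) for the 3 without one there. Whether a run goes with the size of a difference between groups was not tested.

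In Dock2-deficient mice, memory cells had higher mean levels of ribosomal protein genes than naive cells, but no single gene passed the test. The fitted log2 fold change was above 0 for 75 of the 76 genes, with a median of 0.73, against -0.01 over all genes tested, of which 49.3% were above 0; scaling each library to the median of the ribosomal protein genes takes this median to -0.02 by construction. Of the 76 genes, 0 passed limma's test in either direction, while 266 of all 9437 genes tested (2.82%) did. At an unadjusted p under 0.05, 40 of the 76 genes were higher and 0 lower, against 6.96% of all genes higher and 6.39% lower, and limma with voom weights also called 0. Since the 76 genes moved together across libraries (median correlation 0.978), such counts, here and in the comparisons below, are not separate observations. The largest difference was that of Rpl39, a small protein at the exit tunnel of the large subunit, at 1.29 ± 0.36 (SE; adjusted p = 0.0653). Its X-linked gene (ENSMUSG00000079641, chromosome X, 37082520 to 37085402, minus strand, GENCODE M21 on mm10) shares reads with pseudogenes, whose rows hold 34.2% of the value summed over gene and pseudogenes.

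Rpl39 stood at 605, 1153, 2189 and 1496 in wild-type naive cells (libraries 1 to 4, in that order), and at 1568, 1145, 1978 and 1473 in wild-type memory cells. In the Dock2-deficient mice, Rpl39 stood at 853, 808, 822, 1844 and 1629 in naive cells (libraries 1 to 5) and at 1422, 2835, 4269, 1801 and 4776 in memory cells. In Dock2-deficient mice 3 of the 5 memory libraries lay above every naive library, and numbers 1 and 4 lay among the naive ones. Group means of Rpl39 were 1191 ± 504 in naive and 3021 ± 1476 in memory cells (SD, n = 5 each). Next came Rpl27 at 1.06 ± 0.37 (SE; adjusted p = 0.165) and Rps23, a protein of the decoding centre, at 1.05 ± 0.33 (SE; adjusted p = 0.112). Among the smallest differences were those of Rpl28 at 0.37 ± 0.30 (SE; adjusted p = 0.649) and Rps12 at -0.48 ± 1.32 (SE; adjusted p = 0.918). The large-subunit genes had a median of 0.68 and the small-subunit genes of 0.75. For 52 of the 76 genes 3 of 5 memory libraries exceeded all naive libraries, for 19 genes 2, for 4 genes 4 and for 1 gene 1, and the groups overlapped for all 76, where 2.35% of all genes were higher and 1.58% lower without overlap.

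The calls in this comparison depended on which libraries were used. Without Dock2-deficient memory library 4, 7 genes were higher past the threshold (Rpl22, Rpl12, Rpl29, Rpl38, Rps12, Rpl36a and Rpl39), and without library 1 there were 5 (Rpl27a, Rps23, Rpl27, Rpl23 and Rpl39). These are 9.21% and 6.58% of the 76 genes, where 3.40% and 2.72% of all genes were called in either direction under the same omissions. Rpl39 was the only one called without wild-type naive library 1 or without Dock2-deficient naive library 4, where 2.81% and 2.96% of all genes were. Without Dock2-deficient memory library 5, in which 73 genes had their highest value, the median was 0.48 with 75 of 76 genes above 0 and 0 called, and without library 3 it was 0.57. Relative to the median of all genes tested, which moved by -0.31 when libraries were scaled to their total outside ribosomal RNA and mitochondrial genes, the 76 genes stood 0.72 higher under that scaling. Their own median was then 0.40, with 74 of 76 genes above 0.

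In wild-type mice the memory and naive libraries overlapped for each of the 76 genes. The median log2 fold change of the 76 genes was -0.11, against -0.02 over all genes tested, and 20 of 76 genes were above 0, against 47.9% of all genes. None of the 76 passed limma's test, where 238 of all genes did (2.52%), and none had an unadjusted p under 0.05, against 6.79% of all genes higher and 5.29% lower; voom weights also called 0. Groups without overlap made up 4.99% (higher) and 3.27% (lower) of all genes and 0 of the 76. The median SE over the 76 genes was 0.38. The highest were Rpl39 at 0.30 ± 0.41 (SE; adjusted p = 0.864), Rpl27a at 0.23 ± 0.31 (SE; adjusted p = 0.861) and Rpl29 at 0.21 ± 0.38 (SE; adjusted p = 0.902). Among the lowest were Rpl19 at -0.40 ± 0.37 (SE; adjusted p = 0.764) and Rps12 at -0.40 ± 1.48 (SE; adjusted p = 0.958). Even the sign of the median rested on single naive libraries: it was -0.37 with 3 genes above 0 without library 1, and 0.12 with 59 genes above 0 without library 3.

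Between genotypes, memory cells of Dock2-deficient mice had the higher means. The log2 fold change against wild type was above 0 for 75 of 76 genes, with a median of 0.81, against 0.01 over all genes tested, of which 50.9% were above 0; scaled to the ribosomal protein median it is -0.01 by construction. At an unadjusted p under 0.05, 56 of 76 were higher and 0 lower, against 7.92% of all genes higher and 8.47% lower, but 0 of the 76 passed limma's test, where 5 of all genes did (0.053%), and voom weights called 0. The smallest adjusted p was that of Rpl5, which with Rpl11 and 5S ribosomal RNA forms a particle that can bind Mdm2. Rpl5 was also the 1 gene whose groups did not overlap, a pattern shown by 2.06% of all genes in this direction and 2.38% in the other. For 66 of the 76 genes, 3 of the 5 Dock2-deficient memory libraries exceeded all wild-type memory libraries. Without Dock2-deficient memory library 5 the median was 0.59, and 75 of 76 genes were above 0. Scaled to the total outside ribosomal RNA and mitochondrial genes, the median of the 76 genes was 0.51 and stood 0.78 above that of all genes tested.

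Rpl5 stood at 60.3, 144, 178 and 146 in wild-type naive cells (libraries 1 to 4, in that order), and at 122, 89.2, 142 and 85.4 in wild-type memory cells. In the Dock2-deficient mice, Rpl5 stood at 168, 113, 139, 194 and 209.6 in naive cells (libraries 1 to 5) and at 155, 246, 312.9, 167 and 542 in memory cells. The lowest Dock2-deficient memory library, at 154.9, thus lay above the highest wild-type memory library, at 142. The Rpl5 gene (ENSMUSG00000058558, chromosome 5, 107900502 to 107909005, plus strand) had means in memory cells of 109.8 ± 27.2 in wild type (SD, n = 4) and 285 ± 157 in Dock2-deficient mice (SD, n = 5). This is a log2 fold change of 1.24 ± 0.34 (SE; adjusted p = 0.228). Rps14 followed at 1.08 ± 0.39 (SE; adjusted p = 0.253) and Rpl9 at 1.05 ± 0.38 (SE; adjusted p = 0.253), while among the lowest were Rpl31 at 0.47 ± 0.34 (SE; adjusted p = 0.478) and Rps12 at -0.12 ± 1.40 (SE; adjusted p = 0.97). The genotype groups also differ in Xist, which was 1820 to 3887 in all 8 wild-type libraries and at most 5.44 in 4 of the 5 libraries of each Dock2-deficient group, the exception being library 1 of each, at 2217 (naive) and 2593 (memory). The 4 X-linked ribosomal protein genes, Rpl10, Rpl36a, Rpl39 and Rps4x, had log2 fold changes between genotypes of 0.88, 0.74, 0.84 and 0.82 in memory and -0.06, 0.10, -0.14 and -0.02 in naive cells, within the range of the autosomal genes. The part of sex was not tested, and with Xist divided in this way sex cannot be told apart from genotype.

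Between naive cells of the 2 genotypes no consistent difference was seen. The median of the 76 genes was -0.02, against 0.00 over all genes tested, with 31 genes above 0, against 50% of all genes. None passed limma's test, where 13 of all genes did (0.138%), none had an unadjusted p under 0.05, against 3.14% of all genes higher and 2.97% lower, and voom weights called 0. Groups without overlap were 0 of the 76 genes, against 1.46% (higher) and 1.25% (lower) of all genes. The median was -0.25 with 2 genes above 0 without wild-type naive library 1, and 0.21 with 73 above 0 without library 3. Rpl5 was highest again at 0.38 ± 0.34 (SE; adjusted p = 0.97), then Rps2 at 0.19 and Rps9 at 0.16, and Rpl31 (-0.23) and Rps24 (-0.20) were among the lowest. Each genotype comparison shares its libraries with the memory comparisons, so the values of the 4 comparisons are set side by side and not counted as separate evidence.

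The difference of the memory difference between genotypes was tested as an interaction. It was above 0 for 75 of 76 genes, with a median of 0.81, against 0.01 over all genes tested, of which 50.5% were above 0; scaled to the ribosomal protein median it is -0.02 by construction. None of the 76 passed limma's test, the smallest adjusted p being 0.819, and 3 of all genes did (0.0318%); voom weights called 0. At an unadjusted p under 0.05 there was 1 gene of the 76, Rpl12, at 0.69 ± 0.32 (SE), against 2.17% of all genes higher and 3.04% lower. The median SE of the 76 genes was 0.51. Rps24 (1.10 ± 0.54, SE), Rps27 (1.05 ± 0.58) and Rps3 (1.01 ± 0.57) were highest, and Rpl22 (0.56 ± 0.37) and Rps12 (-0.09 ± 1.99) were among the lowest. A memory difference that depends on genotype was therefore not detected for any of the 76 genes with these libraries.

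**Figure D3:**
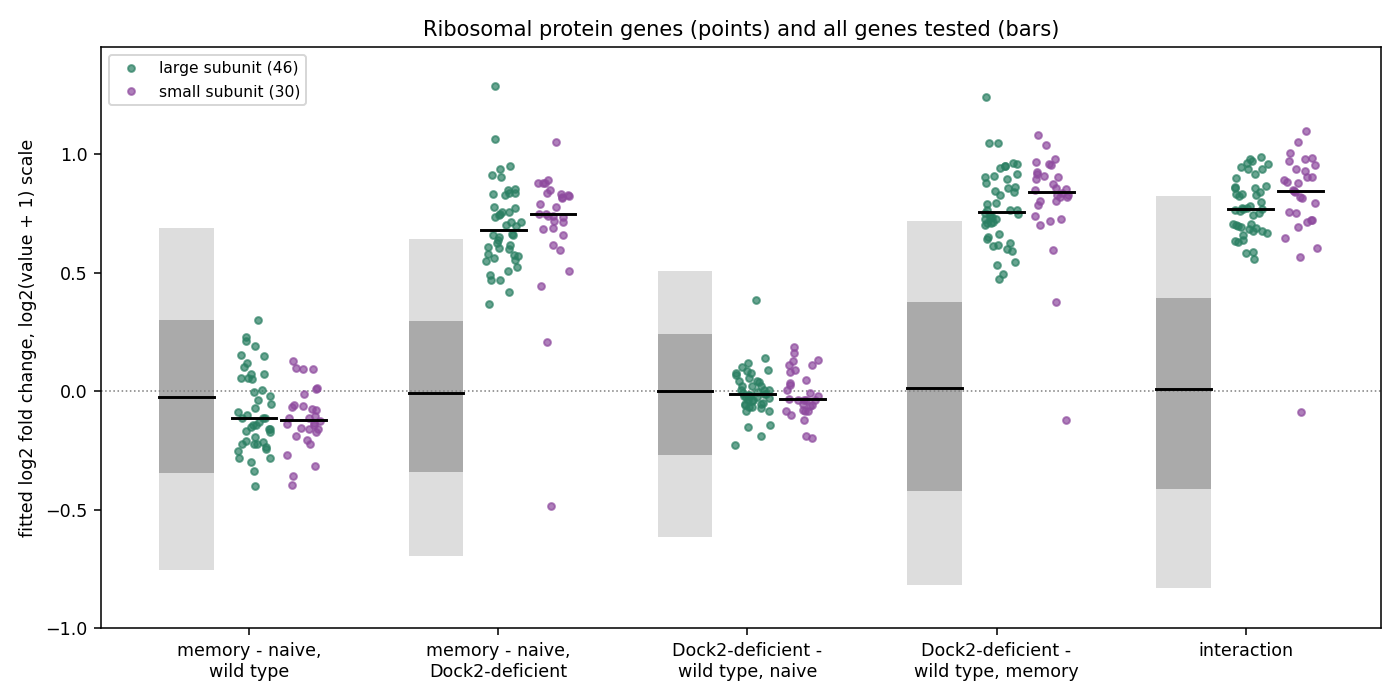
Fitted log2 fold changes (log2(value + 1) scale) in the 5 comparisons: each point is a ribosomal protein gene, the black line by the points is the median of its subunit, and the bars show all 9437 genes tested (light grey 10th to 90th percentile, dark grey 25th to 75th, black line median). Points lie around 0 for wild-type memory against naive and for the genotypes in naive cells, and above 0 for 75 of 76 genes in each of the other 3 comparisons, with Rps12 the exception; scaling to the ribosomal protein median would centre those 3 near 0.

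By function, the stalk proteins followed the common pattern. Rplp0 stood at 7052, 13764, 20478 and 11772 in wild-type naive cells (libraries 1 to 4, in that order), and at 11756, 9124, 15083 and 8034 in wild-type memory cells. In the Dock2-deficient mice, Rplp0 stood at 12240.5, 10414, 8676, 20062 and 17048 in naive cells (libraries 1 to 5) and at 12378, 21084, 34082, 11806 and 49633 in memory cells. Its gene (ENSMUSG00000067274, chromosome 5, 115559467 to 115563727, plus strand) was the most abundant of the 76 by mean value. Dock2-deficient memory libraries 2, 3 and 5 were above all others and libraries 1 and 4 were not. The log2 fold changes of Rplp0 were 0.76 ± 0.41 for memory against naive in Dock2-deficient mice and -0.21 ± 0.46 in wild type (SE), and 1.05 ± 0.44 (SE; adjusted p = 0.277) between genotypes in memory cells. The partners that bind to it gave 0.70 and -0.25 (Rplp1) and 0.84 and -0.00 (Rplp2) for the same memory differences.

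Rpl11, the partner of Rpl5 in the 5S particle, differed less between genotypes than Rpl5, at 0.71 ± 0.35 (SE; adjusted p = 0.314) in memory cells and 0.04 in naive cells. In wild-type mice Rpl11 had values of 637, 1019.7, 1379 and 976 (naive) and 967, 685, 1104 and 871 (memory), and in Dock2-deficient mice of 818, 767, 856, 1469 and 1236 (naive) and 892, 1410.3, 2379.6, 729 and 3042 (memory). Its groups overlapped. Rpl3, near the peptidyl transferase centre, gave 0.60 ± 0.36 and -0.22 ± 0.40 (SE) for memory against naive in Dock2-deficient and wild-type mice, and Rpl4, which lines the exit tunnel, 0.61 ± 0.35 and -0.16 ± 0.39. Rpl13a, which interferon-gamma can release from the ribosome to silence messages, gave 0.56 ± 0.37 and -0.30 ± 0.41. Rpl41, with the shortest coding sequence at 75 bases, gave 0.73 ± 0.35 and -0.09 ± 0.39. None of these passed the test.

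Rpl22, which is needed for the development of alpha-beta T cells, varied less than most. In wild-type mice Rpl22 had values of 325, 438, 671 and 483 (naive) and 539, 387, 528 and 509.9 (memory), and in Dock2-deficient mice of 428, 528, 405, 494 and 434 (naive) and 528, 744, 1122, 404 and 973 (memory). The Dock2-deficient naive libraries stayed within 405 to 528, with a coefficient of variation of 11.2%, the lowest of the 76 genes in that group. Its memory difference was 0.63 ± 0.25 (SE; adjusted p = 0.249) in Dock2-deficient mice and 0.07 in wild type. Rpl38, known for its part in translating Hox messages, gave 0.78 ± 0.28 (SE; adjusted p = 0.199) and 0.15. Rpl10, which joins the large subunit last, gave 0.60 ± 0.32 and -0.34 ± 0.36 (SE), with 69.3% of the value of its named rows in pseudogene rows.

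In the small subunit, Rps6 (ENSMUSG00000028495, chromosome 4, 86854660 to 86857412, minus strand) followed the common pattern. Rps6 stood at 2789.6, 4716, 6626 and 4324 in wild-type naive cells (libraries 1 to 4, in that order), and at 4538, 3285, 5238 and 4057 in wild-type memory cells. In the Dock2-deficient mice, Rps6 stood at 3570.2, 3449, 3436, 5792 and 5145 in naive cells (libraries 1 to 5) and at 4159.9, 7187, 11192, 4833 and 13229 in memory cells. Dock2-deficient memory libraries 2, 3 and 5 lay above all other libraries and the other pair lay within the range of the naive ones. The log2 fold change of memory against naive was 0.82 ± 0.32 (SE; adjusted p = 0.244) in Dock2-deficient and -0.06 ± 0.36 (SE) in wild-type mice. Rps3, at the entry of the messenger RNA channel, gave 0.69 ± 0.38 and -0.32 ± 0.42. Rps19, a gene of Diamond-Blackfan anaemia, gave 0.82 ± 0.38 and -0.08 ± 0.43, and Rpsa, also known as a laminin receptor, 0.85 ± 0.40 and -0.14 ± 0.45. Rps27a, made as a fusion with ubiquitin, gave 0.74 ± 0.31 and -0.19 ± 0.35, and Rps29 0.79 ± 0.35 and -0.11 ± 0.40. Rps4x, on the X chromosome, gave 0.71 ± 0.37 and -0.13 ± 0.41, and in the genotype comparison of memory cells 0.82 ± 0.39 (SE; adjusted p = 0.304).

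Rps12 (ENSMUSG00000061983, chromosome 10, 23785183 to 23787275, minus strand) departed from the others. Rps12 stood at 452, 918, 1439 and 601 in wild-type naive cells (libraries 1 to 4, in that order), and at 768, 574, 787 and 345 in wild-type memory cells. In the Dock2-deficient mice, Rps12 stood at 536, 563, 525, 1417 and 1097 in naive cells (libraries 1 to 5) and at 1229, 2299.5, 2742, 0.885 and 3174 in memory cells. The value of 0.885 in Dock2-deficient memory library 4 corresponds to 1.04 expected reads, whereas the value was at least 345 in each of the other libraries, and it gave Rps12 the largest SE of the 76 genes. In that library the row Rps12-ps3, a pseudogene, held 1324 and the row Rps12l1 held 1797, within the range of those rows elsewhere (405 to 1977 and 838 to 6844). Summed with its named pseudogenes, Rps12 had a log2 fold change of 0.996 for memory against naive in Dock2-deficient mice, in place of -0.48, and 0.85 between genotypes in memory cells, in place of -0.12.

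Rpl12, which lies at the base of the stalk and is singled out after its values were seen, varied least: its highest library was 2.49 times its lowest, against a median of 5.22 times over the 76 genes. In wild-type mice Rpl12 had values of 300.2, 345, 329 and 219.7 (naive) and 256, 253, 295 and 251 (memory), and in Dock2-deficient mice of 269, 226, 207, 333 and 272 (naive) and 339, 383, 475, 222 and 517 (memory).

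**Figure D4:**
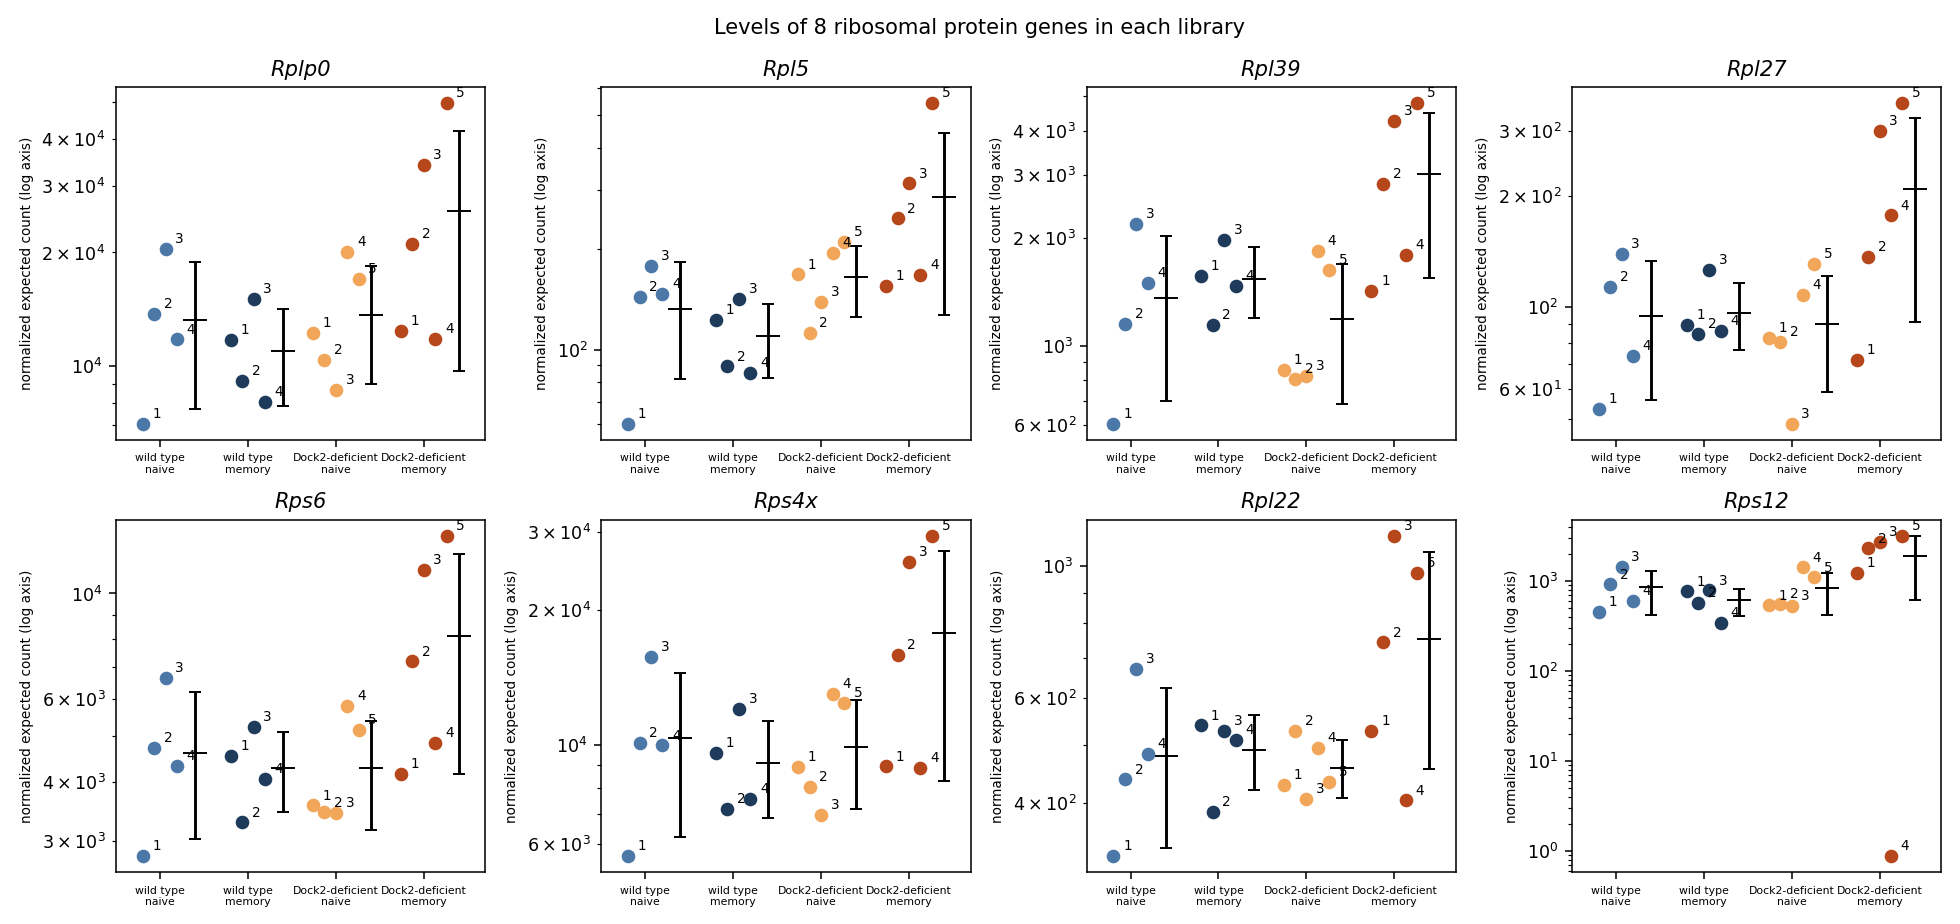
Normalized expected counts (log axis) of 8 ribosomal protein genes in each library, numbered within its group, with the group mean and SD. In 7 of the 8 panels (not Rpl27) Dock2-deficient memory libraries 2, 3 and 5 lie above all other libraries; Rpl5 is the gene whose memory groups do not overlap, and Rps12 has a value of 0.885 in Dock2-deficient memory library 4.

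Near-identical copies limit several of these values, because RSEM divides shared reads between rows as an estimate. The table holds 268 rows named as pseudogenes of the 76 genes, 50 of them past the filter, and 34 of the 76 genes have at least 1 such row past it. The pseudogene rows hold over 10% of the summed value for 18 genes and over 50% for 5, namely Rpl27 (90.9%), Rpl10 (69.3%), Rpl28 (60.4%), Rps23 (58.1%) and Rpl31 (52.7%). The levels and differences of these genes, and of Rps12, are uncertain. Copies under other names were not counted, and whether they affect further genes was not tested. The level of Rpl5 (mean 179, against a median of 2666 over the 76 genes) and its lack of overlap are thus uncertain too. Per library, all 271 rows named as ribosomal protein pseudogenes held 8.27% to 10.5% of the value summed with the 76 genes. The average was 9.36% to 9.61% in the 4 groups. Copies under other names are not in this share. With the named pseudogenes added, 76 of 76 genes were above 0 for memory against naive in Dock2-deficient mice, with a median of 0.73 and 0 called.

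Transcript length moved with the same libraries. Among 3581 other genes with a mean of at least 50, the median deviation from the 18-library mean in Dock2-deficient memory library 5 was 0.75 for the 264 genes with transcripts up to 1000 bases, 0.54 for those over 1000 and up to 2000 bases, 0.20 up to 3000 bases and -0.70 for longer ones. The ribosomal protein genes, 59 of which are up to 1000 bases long, stood at 1.47 there. In wild-type naive library 1 the 4 classes stood at -0.54, -0.31, -0.01 and 0.41 and the ribosomal protein genes at -0.91. In Dock2-deficient memory library 3 they stood at 0.43, 0.21, 0.06 and -0.23, against 1.18. For memory against naive in Dock2-deficient mice, the 264 short genes had a median log2 fold change of 0.25 and the 59 ribosomal protein genes of that length 0.73. Between genotypes in memory cells these were 0.41 and 0.80. After an adjustment of each library for transcript length, fitted on the other genes, the median of the 76 genes was 0.53 for memory against naive in Dock2-deficient mice, with 4 genes called higher (Rpl27a, Rps23, Rpl23 and Rpl39). These 4 are 5.26% of the 76 genes, near the 3.84% of all genes called at that setting. With the same adjustment the median was 0.53 between genotypes in memory cells, -0.15 for memory against naive in wild type and 0.65 for the interaction, with 0 called in each. Between genotypes in naive cells it was -0.14 with 7 of 76 genes above 0, in place of -0.02 with 31, and 0 were called. Beyond these values, the part of transcript length was not tested.

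**Figure D5:**
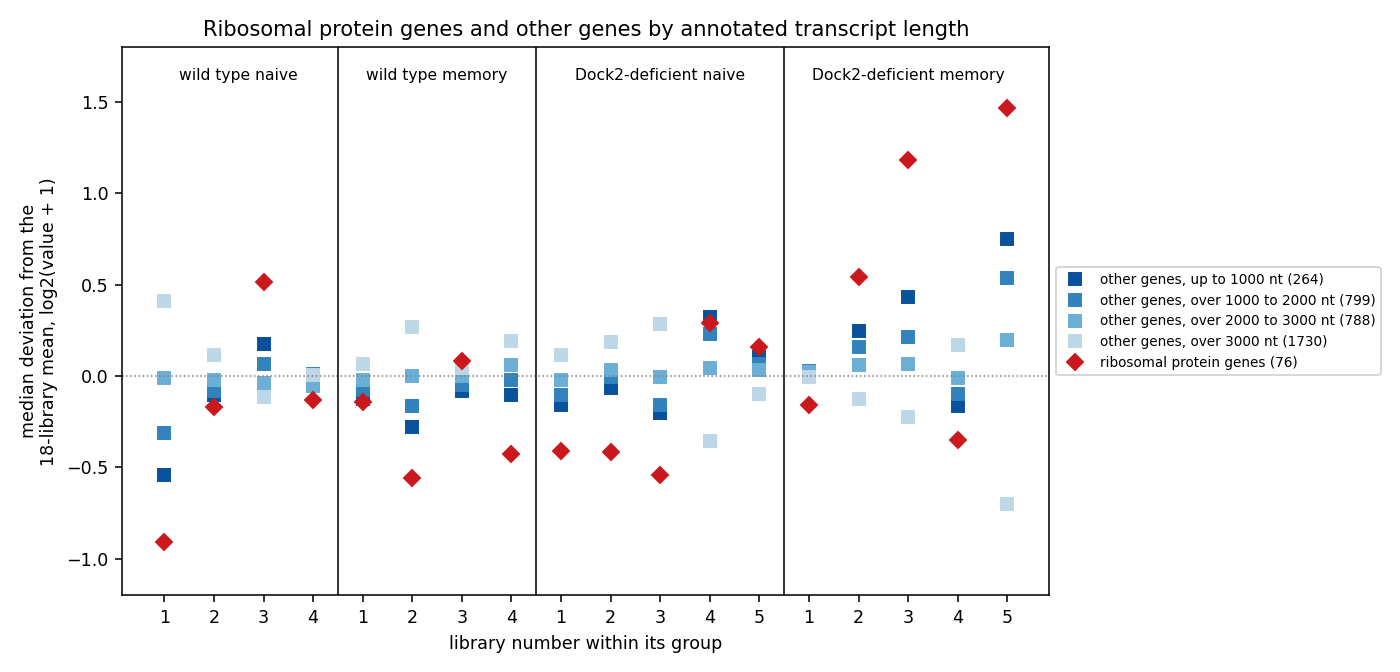
Median deviation from the 18-library mean on the log2(value + 1) scale, for the 76 ribosomal protein genes (diamonds) and for other genes with a mean of at least 50 in 4 classes of annotated transcript length (squares, number of genes in brackets), in each library by group. In Dock2-deficient memory library 5 and wild-type naive library 1 the classes are ordered by length in opposite directions, and the ribosomal protein genes lie beyond the class of short genes (1.47 against 0.75, and -0.91 against -0.54).

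Genes that work with the ribosome differed in how far they shared the pattern. Ribosomal proteins whose symbols fall outside the rule (9 tested, among them Rps3a1 and Gnb2l1, which encodes RACK1) had medians of 0.70 for memory against naive in Dock2-deficient and -0.08 in wild-type mice, with 0 called in any comparison. Other messages with a known TOP start (24 tested, led by the elongation factor gene Eef1a1, Tpt1 and Eef2) had medians of 0.32 and -0.02, with 23 of 24 above 0 in Dock2-deficient mice and 0 called. The 74 mitochondrial ribosomal protein genes, which serve the separate ribosome of that organelle, had medians of 0.13 and -0.05, with 0 called. Ribosome biogenesis factors (96 tested) had medians of 0.11 and 0.02. Of these Riok1, a kinase of late small-subunit maturation, rose in Dock2-deficient memory cells by 0.98 ± 0.25 (SE; adjusted p = 0.0329). It was the 1 gene of the 96 called in that comparison, where 2.82% of all genes were called.

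Among genes of RNA polymerase I (20 tested, led by Polr1d, Polr2e and Ubtf), the medians were 0.11 and 0.05, with 0 called. Among 24 genes of the mTORC1, LARP1 and MYC control of ribosomal protein messages they were 0.00 and 0.22. Rptor, which encodes the substrate-binding subunit of mTORC1, rose in wild-type memory cells by 1.98 ± 0.49 (SE; adjusted p = 0.0281) and was the 1 gene of that list called in any comparison. In wild-type memory against naive cells 2.52% of all genes were called. The 8 promoter factors linked to ribosomal protein genes (led by Hcfc1, Zbtb7a and Gabpb2) had medians of -0.05 and 0.11, with 0 called. Between genotypes in memory cells the medians of these lists were 0.74, 0.54, 0.28, 0.17, 0.18, -0.28 and -0.13 in the order given, with 0 called in each, beside 0.81 for the 76 genes.

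The other genes whose levels followed the mean of the 76 genes most closely over the 18 libraries were Gm2000, Gm10275, Eef1b2, Tmsb4x and Rps3a1, with Pearson correlations between 0.986 and 0.990 on log2(value + 1). Eef1b2 encodes a subunit of elongation factor 1 and Tmsb4x the actin-binding peptide thymosin beta 4. Gm2000 and Gm10275 are gene models without a descriptive name. Whether they are copies of ribosomal protein genes that share reads with them was not tested. Tmsb4x, which has no known role in the ribosome, had a mean value of 3203.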

How the data were processed

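RNA from 18 CD8 T cell libraries was extracted with a column kit and amplified by Smart-seq2, per the labels' protocols. Per the submitters' processing notes, bcl2fastq, FastQC and RSEM were used with the mouse build mm10; versions and settings are not given in the sources used here. Per-gene signal values, as deposited, are treated as RSEM expected counts that the authors divided by 1 factor per library, because after multiplication by such a factor all lie on a grid of 0.01 reads. RSEM splits shared reads by estimation. Depth on that scale was 2215987 to 8257768 expected reads.

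Values were transformed as log2(value + 1), the 9437 genes that reached 10 in 4 or more libraries were kept, and limma 3.58.1 (R 4.3.3, intensity trend) was fitted with 1 mean per group. Tests were two-sided with Benjamini-Hochberg adjustment over all genes tested and a threshold of 0.05, and fold changes are on the log2(value + 1) scale. Transcript lengths and positions came from GENCODE M21 on mm10 and start windows from RefSeq on GRCm38.p6. The fit was tested on simulated data in which each gene varied independently. That does not show how it behaves for genes that move together, as the ribosomal protein genes did. Figures were drawn with matplotlib 3.10.9.

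The members, gene lists and alternatives were chosen with earlier results of these data known. Genes named in a comparison are those past the threshold, the 3 highest and 3 lowest log2 fold changes among members with a mean of at least 50, and a set named for their roles; a few genes are not reported here. From each other list, genes past the threshold are named, or else the 3 most abundant. Alternatives covered the pseudocount, filter, scaling, voom weights, the replicate number as a block and each library left out; those for transcript length, pseudogenes, scaling to the ribosomal protein median and leaving out wild-type naive library 1 with Dock2-deficient memory library 5 were chosen after seeing the data.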

Additional observations from a re-analysis of the deposited data

Results flagged for a closer look

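In wild-type memory cells, Rpl27 was 126.4 in library 3, apart from the other 3 libraries of the group, which lay between 84.8 and 89.4. The gap to the nearest library was 0.889 of the range of the group, above Dixon's critical value for 4 samples. This was the 1 value so marked among 136 groups of values of 34 ribosomal protein genes and 16 groups of library shares, where chance alone marks about 1 in 20. Rpl27 has 90.9% of its summed value in pseudogene rows.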

How the results depend on the processing

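Of 1152 comparisons of 39 results with an alternative, 1100 kept their sign and were unchanged by the rule for their kind. A single gene had to keep its side of the threshold. A median had to move by less than the largest SD among the groups compared, 0.57 or 0.65. A fall from 0.73 to 0.48 thus counted as unchanged. A share had to move by less than the SD of its group, and a count of calls by at most 1.5 times. Many comparisons could not change, because leaving out a library of a group not compared keeps a fold change as it was. The 1100 is therefore not a measure of stability. Single genes changed sign 25 times, of which 17 were Rps12, and the medians 9 times: 3 under the ribosomal protein scaling, 5 between genotypes in naive cells and 1 for memory against naive in wild type with single libraries left out; the cause was not tested. The count of ribosomal protein genes called for memory against naive in Dock2-deficient mice was 0 to 7 when single libraries were left out, 4 after adjustment for transcript length and 1 when scaled to the ribosomal protein median, this 1 lower and the others higher; in the other comparisons it was 0 throughout. That last scaling sets the medians to -0.020 for this comparison, -0.0055 between genotypes in memory cells and -0.025 for the interaction by construction. Rpl28 was then -0.38 for memory against naive in Dock2-deficient mice, Rpl31 -0.34 between genotypes in memory cells, and Rpl22 -0.27 for the interaction. With single libraries left out, the median over the 76 genes ranged from -0.37 to 0.12 for memory against naive in wild type, 0.48 to 0.94 in Dock2-deficient mice, -0.25 to 0.21 and 0.59 to 1.01 between genotypes in naive and memory cells, and 0.57 to 1.04 for the interaction. Under the same omissions Rpl39 ranged from -0.042 to 0.58 (memory against naive, wild type), Rps9 from -0.060 to 0.39 and Rps24 from -0.51 to 0.062 (genotypes, naive), and Rps12 from -1.12 to 1.56 (memory against naive, Dock2-deficient), -0.76 to 1.92 (genotypes, memory) and -0.73 to 1.95 (interaction). Without wild-type naive library 1 and Dock2-deficient memory library 5 together, Rpl39 was -0.042 and Rps9 -0.060. Summed with pseudogene rows, Rps12 was 0.18 and 0.996 for memory against naive in wild-type and Dock2-deficient mice, 0.85 between genotypes in memory cells and 0.82 for the interaction; with a pseudocount of 5 the last pair were 0.20 and 0.23. The share of the summed level outside ribosomal RNA and mitochondrial genes was 16.2% and 14.1% in wild-type naive and memory and 16.04% and 21.4% in Dock2-deficient naive and memory cells. Counts over all genes moved by more than 1.5 times: 238 and 266 for memory against naive fell to 104 and 148 with a mean of at least 50, where 3840 genes were tested, and 238 to 144 with the ribosomal protein scaling. Over all alternatives the calls between genotypes were 6 to 19 in naive and 2 to 13 in memory cells, and 0 to 5 for the interaction.

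Same-numbered libraries were not paired by the labels, and their deviations correlated between -0.25 and 0.30. With the replicate block, 0 ribosomal protein genes were called in any comparison, and the medians were -0.11 and 0.73 for memory against naive in wild-type and Dock2-deficient mice, -0.17 and 0.66 between genotypes in naive and memory cells, and 0.81 for the interaction. All genes called between genotypes were 19 in naive and 7 in memory cells with the block and 13 and 5 without it, and 0 and 3 for the interaction. A library correlated best with its own number in 2 of 4, 2 of 5, 1 of 4 and 1 of 4 pairs. Depth limits Rpl27 most, with a median of 103.8 expected reads.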
